A study of Mus musculus with 2 samples.

Results

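The genes of 42 nuclear receptors other than the vitamin D receptor (VDR) and its retinoid X receptor (RXR) partners were examined for VDR-bound sites in the left ventricle of E16.5 mouse embryos. They were chosen by name as members of the nuclear receptor family, and all 42 were found among the 49976 genes of the RefSeq table for GRCm38.p6, the same build as mm10, of which 21896 are protein-coding. The study deposited 1 list of VDR peaks for embryos whose mothers ate a normal diet and 1 for embryos whose mothers ate a vitamin D deficient diet, each made by chromatin immunoprecipitation and sequencing. No genotype, strain, sex or number of pooled embryos is given in the sources used here, and no replicate exists, so the values describe 2 libraries and carry no test between diets. Peak lists hold no expression values, so the labelled tissue could not be checked against marker genes. A peak was counted for a gene when its summit, the base with the most fragments, lay inside the gene span or within 10 kb of either end.

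Nuclear receptors are transcription factors with a DNA-binding domain made of zinc fingers and, in most, a pocket for a small lipophilic ligand. VDR, the thyroid hormone, retinoic acid, PPAR, liver X and farnesoid X receptors bind DNA as dimers with RXR, so they draw on a shared partner. Many members recognise variants of the same hexamer, and the spacing and order of a pair of such hexamers decide which dimer fits. In heart muscle, thyroid hormone receptors, PPARs and estrogen-related receptors are known for control of contractile and energy genes, and COUP-TF and retinoic acid receptors for chamber formation in the embryo.

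The promoters that a peak touched are shown first, because they show the sequence around a listed transcription start that carried VDR signal. RefSeq promoter windows of GRCm38.p6, which run from 250 bases before to 50 bases after a listed transcription start, were matched for 38 of the 42 genes, with 56 windows in all. A peak overlapped 4 of the 56 windows in each list (7.14%), against 5.24% of all 32851 windows under the normal diet and 5.41% under the deficient one. The 6 genes concerned are printed 5′ to 3′ on the strand of the gene, as the 250 bases before the start. Where a gene has several listed starts, the one touched is shown. A listed start can lie inside the span: the promoter summits were 507 kb from the 5′ end of the span at Rarb, and 13.0 kb from it in both lists at Nr4a1. Capitals mark bases covered by the peak or, where both lists have a peak, by both. Nr1h2 and Nr4a1 were touched in both lists, Pparg and Nr2e1 in the normal-diet list, and Rarb and Hnf4a in the deficient-diet list.
Nr1h2 (chr7:44553966-44554215, minus strand): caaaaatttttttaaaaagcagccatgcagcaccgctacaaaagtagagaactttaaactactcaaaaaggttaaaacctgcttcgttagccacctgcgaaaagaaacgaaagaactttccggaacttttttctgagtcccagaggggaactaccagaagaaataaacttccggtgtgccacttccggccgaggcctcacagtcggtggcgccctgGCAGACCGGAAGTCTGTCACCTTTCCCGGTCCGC
Nr4a1 (chr15:101266596-101266845, plus strand): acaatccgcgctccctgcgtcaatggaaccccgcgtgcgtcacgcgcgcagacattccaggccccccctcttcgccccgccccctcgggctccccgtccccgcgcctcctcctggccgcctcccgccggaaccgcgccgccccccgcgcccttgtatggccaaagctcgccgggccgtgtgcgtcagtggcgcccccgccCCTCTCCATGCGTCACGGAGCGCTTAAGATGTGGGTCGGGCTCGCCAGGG
Pparg (chr6:115362099-115362348, plus strand): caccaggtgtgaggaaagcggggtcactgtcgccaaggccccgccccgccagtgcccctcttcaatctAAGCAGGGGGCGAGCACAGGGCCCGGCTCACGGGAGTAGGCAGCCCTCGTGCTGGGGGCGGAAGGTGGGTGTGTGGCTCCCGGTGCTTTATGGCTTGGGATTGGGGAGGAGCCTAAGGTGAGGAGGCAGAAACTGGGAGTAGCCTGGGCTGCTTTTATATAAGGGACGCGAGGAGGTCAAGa
Nr2e1 (chr10:42583591-42583840, minus strand): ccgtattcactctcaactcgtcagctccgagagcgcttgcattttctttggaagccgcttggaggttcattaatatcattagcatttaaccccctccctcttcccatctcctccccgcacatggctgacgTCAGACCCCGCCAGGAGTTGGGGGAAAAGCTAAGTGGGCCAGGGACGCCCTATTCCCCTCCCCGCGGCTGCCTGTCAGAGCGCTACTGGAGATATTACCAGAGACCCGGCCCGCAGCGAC
Rarb (chr14:16575477-16575726, minus strand): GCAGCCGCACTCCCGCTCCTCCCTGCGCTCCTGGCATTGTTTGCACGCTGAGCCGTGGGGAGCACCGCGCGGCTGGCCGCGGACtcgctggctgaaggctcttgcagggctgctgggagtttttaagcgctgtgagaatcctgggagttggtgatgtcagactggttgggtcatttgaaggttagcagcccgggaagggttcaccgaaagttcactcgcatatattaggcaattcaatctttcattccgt
Hnf4a (chr2:163506607-163506856, plus strand): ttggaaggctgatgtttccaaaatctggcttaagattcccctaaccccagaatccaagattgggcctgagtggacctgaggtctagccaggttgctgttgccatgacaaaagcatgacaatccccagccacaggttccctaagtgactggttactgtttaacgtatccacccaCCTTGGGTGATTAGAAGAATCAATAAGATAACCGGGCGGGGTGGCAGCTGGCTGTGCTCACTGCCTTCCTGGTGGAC

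These windows were searched on both strands, over all 300 bases, for the receptor hexamer AGGTCA, its variant GGGTCA, the variant AGTTCA, or the variant GGTTCA. At least 1 hexamer was found in 23 of the 56 windows of the receptor genes (41.1%) and in 43.7% of all windows. A direct repeat of any of these hexamers with 3 bases between them, the classical arrangement for VDR with RXR, was found in none of the 56 windows and in 0.0396% of all windows. Inside a peak, the Pparg window held AGGTCA beginning 9 bases before the start, and the Nr2e1 window held AGTTCA on the opposite strand beginning 22 bases into the transcribed part, which is not printed. The Rarb window held GGGTCA beginning 83 bases before the start, GGTTCA at 53 bases before it, with AGTTCA at 42 bases before it, all on the strand of the gene and all outside the peak. The latter pair are 5 bases apart, the spacing of the well-known retinoic acid response element of this promoter. Nr1h2, Nr4a1 and Hnf4a held none of the hexamers in these windows. A match describes letters only, and the 4 exact hexamers leave out variants that VDR may bind.

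Of the 42 receptor genes, 25 had a normal-diet peak (59.5%, exact 95% binomial interval 43.3 to 74.4%) beside 49.8% of all protein-coding genes. In the deficient-diet list 32 had a peak (76.2%, 60.5 to 87.9%) beside a background of 59.4%. Both lists had a peak at 20 genes (47.6%, background 40.6%), the normal-diet list alone at 5 (11.9%, background 9.16%) and the deficient-diet list alone at 12 (28.6%, background 18.8%). Neither list had one at 5 genes (11.9%), where the background was 31.4%. The intervals, which cover counting error only, include the background in the normal-diet list, in both lists and in either list alone. They lie above it in the deficient-diet list and under it for genes without any peak, before span length is taken into account. Of protein-coding genes, 43.8% with spans under 10 kb and 3.96% with spans of 300 kb and over had no peak in either list. The receptor genes are longer than most, with a median span of 48.4 kb against 17.1 kb, and among protein-coding genes longer spans more often held a peak. The comparison by length is given further on for genes with a peak in each list. It was not made for genes without any peak. The 5 such receptor genes fall in span classes where 12.8 to 43.8% of protein-coding genes had none in both lists.

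The lists differ in depth. The normal-diet list holds 23456 peaks and the deficient-diet list 37661, and the lowest background at a summit, read as the genome-wide one, was 2.03 times as high in the deficient-diet library. Among peaks whose -log10 q reached 5, 18 receptor genes had a normal-diet one (42.9%, 27.7 to 59%, background 24.5%). A deficient-diet one was found at 17 (40.5%, 25.6 to 56.7%, background 24.9%), so the 2 counts were close. Both intervals lie above the background, with span length not taken into account. With the longer list cut to equal length, 25 and 27 receptor genes had a peak, and no background is given at that setting. The part of depth in the higher deficient-diet count was not tested.

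**Figure D1:**
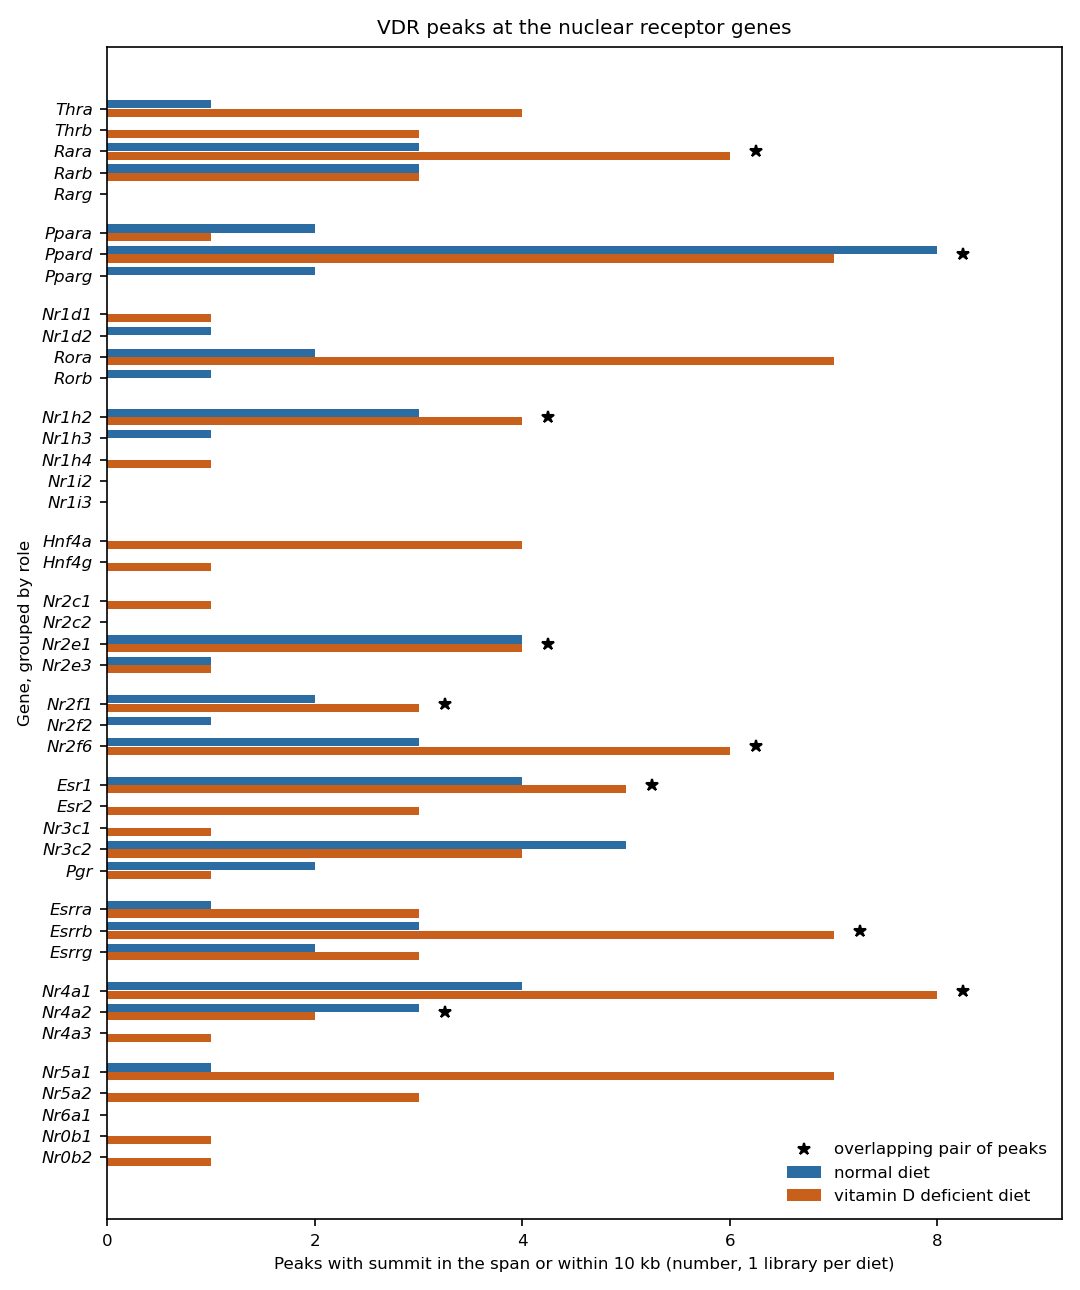
Bars give the number of peaks (horizontal axis) with a summit in the span or within 10 kb of each of the 42 receptor genes, grouped by role, with normal diet in blue, deficient diet in orange and 1 library for each. Stars mark the 10 genes with an overlapping pair; Ppard reaches 8 normal-diet peaks and Nr4a1 8 deficient-diet peaks, while Rarg, Nr1i2, Nr1i3, Nr2c2 and Nr6a1 have none.

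The receptor genes held 63 normal-diet peaks, 0.269% of the list, and 106 deficient-diet peaks, 0.281%. One of the latter, inside Thra and 7274 bp from Nr1d1, counts for both genes. Most summits lay inside spans, 45 of 63 and 91 of 106. In the normal-diet list 9 lay upstream and 9 downstream, while of the other list 4 lay upstream, 9 downstream and 2 beside genes without a listed strand. Of the summits outside the spans, 10 of 18 normal-diet and 10 of 15 deficient-diet ones fell in the span of another gene, so a peak in a window is not thereby a peak of the receptor gene. The summits closest to the limit of 10 kb were 9279 bp from Pparg and 9672 bp from Nr5a1 on the inner side, and 10021 bp from Nr1i2 and 10270 bp from Rarg on the outer side.

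The strongest sites at receptor genes ranked 639 of 23456 in the normal-diet list and 1290 of 37661 in the other. The pileup, the number of fragments over the summit, ran from 12 to 24 with a median of 17 for the normal diet, whose overall median was 16. It ran from 17 to 29 with a median of 22 in the deficient-diet list, equal to that list's median. The median fold enrichment from the authors' lists was 4.65 against 4.38 overall for the normal diet and 3.45 in both sets for the deficient diet. The authors' -log10 q was 5 or more in 28 normal-diet peaks (44.4%, 31.9 to 57.5%) against 35% of the list, and in 22 deficient-diet peaks (20.8%, 13.5 to 29.7%) against 24.3%. Local background at these summits was at most 1.77 and 1.8 times the genome-wide value, while the lists as a whole reach 58.4 and 48.3 times, so no receptor gene peak lay where background was very high.

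**Figure D2:**
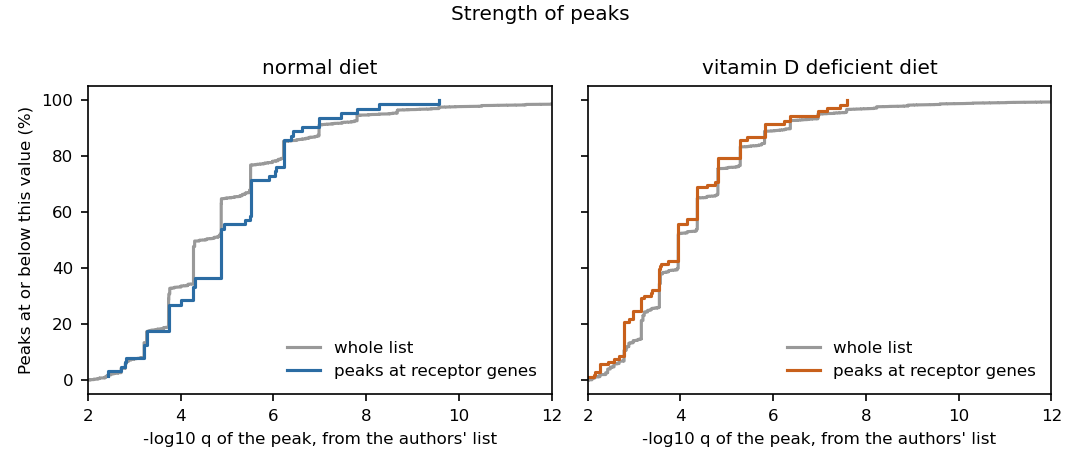
Each curve gives the percentage of peaks (vertical axis) at or below a -log10 q (horizontal axis, cut at 12), for the peaks at receptor genes (colour) and the whole list (grey). The receptor curves end at 9.57 on the left and 7.59 on the right, while the whole lists go on to 72.3 and 46.1.

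Thyroid hormone and retinoic acid receptors had 7 normal-diet and 16 deficient-diet peaks over 5 genes. Thra, which encodes the main thyroid hormone receptor of heart muscle, had 1 normal-diet peak with a pileup of 15 and 4 deficient-diet peaks with pileups of 19 to 24, none overlapping. Thrb, with a span of 381 kb, had no normal-diet peak and 3 deficient-diet ones, the strongest 26 fragments high and with -log10 q 6.37. Another lay 377 bp before a listed Thrb start. Rara had 3 and 6 peaks, with 1 overlapping pair inside the gene, on chromosome 11 from 98950048 to 98950291 and from 98950046 to 98950233, with pileups of 14 and 18. Rarb had 3 peaks in each list and no overlap. Its deficient-diet peak at the promoter, on chromosome 14 from 16575643 to 16575827 with a pileup of 22, is the one marked in the printed sequence. Rarg had none, its closest summits being 10327 bp (normal diet) and 10270 bp (deficient diet) from the span.

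The PPARs, sensors of fatty acids, had 12 normal-diet and 8 deficient-diet peaks. Ppard, the widely expressed member, held 8 of the former, the most of any receptor gene in that list, and 7 of the latter. Among the 5077 protein-coding genes with spans of 30 to 100 kb, 0.906% had at least 8 normal-diet peaks and 5.22% at least 7 deficient-diet peaks. Only 1 pair of Ppard peaks overlapped, on chromosome 17 from 28286927 to 28287116 and from 28286914 to 28287102, with pileups of 16 and 19 and summits 31 bp apart. The other sites did not overlap, though a normal-diet peak ended at 28297305 and a deficient-diet peak began at 28297323. Of the normal-diet sites, 2 were outside the span, 9011 bp upstream inside Def6 and 5779 bp downstream. Ppara, which drives fatty acid oxidation, had 2 normal-diet peaks, both downstream of the span, of which the farther reached a -log10 q of 7.8 over 20 fragments, and 1 deficient-diet peak inside with a pileup of 25. Pparg, the fat cell regulator, had 2 normal-diet peaks with pileups of 16, including the printed promoter site on chromosome 6 from 115362167 to 115362347, and no deficient-diet peak within 29127 bp.

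REV-ERB receptors, repressors of the circadian clock, and ROR receptors, their activating counterparts, had 4 normal-diet and 8 deficient-diet peaks and no overlapping pair. Rora, the longest member at 735 kb, held 7 of the 8 deficient-diet peaks and 2 normal-diet ones. Spans of 300 kb and over had a median of 4 deficient-diet peaks, and 23.9% of these 556 genes had 7 or more. One Rora peak, with a pileup of 18, lay 408 bp before the listed start. Rorb had a single normal-diet peak, 21 fragments high and with -log10 q 8.29, the second strongest normal-diet site at any receptor gene, and no deficient-diet summit within 130216 bp of its span. Nr1d2 had 1 normal-diet peak, 291 bp into the gene with a pileup of 13. Nr1d1 was counted only through the deficient-diet peak inside Thra.

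Nr1h2, the widely expressed liver X receptor that senses oxysterols, had 3 normal-diet and 4 deficient-diet peaks around a span of 4.35 kb. Of the 7937 protein-coding genes with spans under 10 kb, 7.35% had at least 3 normal-diet peaks and 6.35% at least 4 deficient-diet peaks. Its promoter pair lay on chromosome 7 from 44553775 to 44554055 and from 44553782 to 44553999, with 218 bp in common, pileups of 19 and 20, and summits 27 and 145 bp after the start. A further pair, with pileups of 16 and 25, lay downstream inside Pold1, the gene of a DNA polymerase subunit. Nr1h3, the other liver X receptor, had 1 normal-diet peak, with its summit 85 bp outside the span and inside Acp2, and Nr1h4, the bile acid receptor, 1 deficient-diet peak. Nr1i2 and Nr1i3, the xenobiotic receptors of liver, had none. The nearest normal-diet summits were 10021 and 28143 bp from their spans, and the nearest deficient-diet summits 43805 and 15449 bp.

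The HNF4 genes, regulators of liver and gut, had peaks in the deficient-diet list alone: 4 at Hnf4a with pileups of 18 to 24 and 1 at Hnf4g with a pileup of 20. Of all protein-coding genes, 18.8% had a peak in that list alone. At least 1 deficient-diet peak was found at 78.7% of genes in the span class of Hnf4g, 100 to 300 kb. The printed Hnf4a site, on chromosome 2 from 163506780 to 163506968, also lies in the span of the antisense RNA gene Hnf4aos. Among the orphans of the next subfamily, Nr2e1, a regulator of neural stem cells, had 4 peaks in each list with pileups of 13 to 16 and 19 to 24. One pair overlapped upstream of it, in the span of Gm38491, on chromosome 10 from 42584261 to 42584531 and from 42584174 to 42584596, with summits 749 and 695 bp before the start. Nr2e3, the photoreceptor member, had 1 peak in each list at different places. Nr2c1 had 1 deficient-diet peak, 423 bp after its start, 28 fragments high and with -log10 q 7.17, and Nr2c2 had none.

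COUP-TF genes had the highest density of any role group, with 64.8 normal-diet and 97.2 deficient-diet peaks per Mb of window, and all 3 have short spans. Protein-coding genes gave 28.3 and 40.5 per Mb for spans under 10 kb and 23.6 and 35.6 from 10 to 30 kb. The COUP-TF genes make up 0.0926 Mb of window, so the densities rest on 6 and 9 peaks. Nr2f1, an orphan regulator of neural and atrial cell identity, had 2 normal-diet peaks, and both overlapped the other list. The one inside the gene, on chromosome 13 from 78194924 to 78195754 with a pileup of 19, overlapped a pair of deficient-diet peaks with pileups of 26 and 21. The other, upstream in the span of A830082K12Rik, had its summit 2 bp from the deficient-diet summit, with pileups of 18 and 21. Nr2f6 had 3 normal-diet and 6 deficient-diet peaks at a span of 7.85 kb. Of genes under 10 kb, 7.35% had at least 3 normal-diet and 1.49% at least 6 deficient-diet peaks. The Nr2f6 pair inside the gene, on chromosome 8 from 71374577 to 71374811 and from 71374523 to 71374762, had summits 6 bp apart and pileups of 18 and 25. Its other pair lay downstream in Ocel1. Nr2f2, which sets atrial identity and is needed for vein formation, had 1 normal-diet peak with a pileup of 18, 5613 bp downstream, and no deficient-diet summit within 70966 bp.

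Steroid receptor genes had 11 normal-diet and 14 deficient-diet peaks. Esr1, the estrogen receptor alpha gene, had 4 and 5, and 3 of the 4 normal-diet peaks had a partner. These 3 sites lay close together within a span of 394 kb, on chromosome 10 at 4906938 to 4907118, 4911561 to 4911746 and 4912017 to 4912547 in the normal-diet list. Their pileups were 17, 17 and 18 under the normal diet and 20, 28 and 22 under the deficient one. The middle one was, with a -log10 q of 7.59, level with an Esrrb peak as the strongest deficient-diet site at a receptor gene. Of the 556 protein-coding genes with spans of 300 kb and over, as Esr1 has, 59.5% had an overlapping pair. At least 4 normal-diet peaks were found at 30.8% and at least 5 deficient-diet peaks at 38.5% of them. Nr3c2, the mineralocorticoid receptor gene, had 5 normal-diet peaks with pileups of 14 to 24 and 4 deficient-diet peaks with pileups of 18 to 22, and no pair overlapped. Esr2 had 3 deficient-diet peaks with pileups of 17 to 23. Nr3c1, the glucocorticoid receptor gene, had 1 deficient-diet peak with a pileup of 21. Pgr had 2 normal-diet peaks, one of them 491 bp after the start with a pileup of 18, and 1 deficient-diet peak.

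Estrogen-related receptors, regulators of mitochondrial genes in heart, had 6 normal-diet and 13 deficient-diet peaks. Each of the 3 genes had a peak in both lists, as had 40.6% of all protein-coding genes. For spans of 300 kb and over, such as Esrrg, 85.3% had a normal-diet and 93% a deficient-diet peak. Esrrb, better known from stem cells, had 3 and 7 peaks with 2 overlapping pairs inside the gene. At the first, on chromosome 12 from 86483434 to 86483710, the pileups were 18 and 22. At the second, from 86505772 to 86505972, they were 12 and 28 with summits 1 bp apart. The latter had the lowest normal-diet pileup at any receptor gene and 1 of the higher deficient-diet ones, with -log10 q values of 2.72 and 6.96. Esrra had 1 and 3 peaks, the normal-diet one inside Kcnk4, and Esrrg had 2 and 3, none overlapping. A normal-diet Esrrg peak with a pileup of 20 lay 524 bp after a listed start.

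NR4A genes, immediate early genes that respond to stress and stretch, had 7 normal-diet and 11 deficient-diet peaks over spans of 17.2 to 41.4 kb. These are 50.2 and 78.9 per Mb, over only 0.139 Mb of window. Protein-coding genes gave 23.6 and 35.6 per Mb for spans of 10 to 30 kb and 15.4 and 24.7 from 30 to 100 kb. Nr4a1 alone had 4 of the 7 and 8 of the 11 peaks. At least 4 normal-diet peaks were found at 4.34% and at least 8 deficient-diet peaks at 0.976% of the 6454 protein-coding genes with spans of 10 to 30 kb. Its promoter site, on chromosome 15 from 101266796 to 101267050 and from 101266796 to 101266979, was the strongest normal-diet site at any receptor gene, with a -log10 q of 9.57, a fold enrichment of 6.3 and a pileup of 22. Of all normal-diet peaks, 2.56% had a higher -log10 q. The deficient-diet peak there had a -log10 q of 5.29, a fold enrichment of 3.92 and a pileup of 24. The summits lay 101 and 16 bp after the start. A further pair lay 4951 and 4913 bp past the end of the span, with pileups of 14 and 22. Nr4a2 had 3 and 2 peaks and 1 pair that overlapped by 35 bp, the smallest overlap of the 18 pairs. Nr4a3 had 1 deficient-diet peak with a pileup of 19.

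The last group held 1 normal-diet and 12 deficient-diet peaks. Nr5a1, the regulator of steroid-producing tissues, had 7 of the latter, with pileups of 18 to 23, and the 1 normal-diet peak, with a pileup of 16. At least 7 deficient-diet peaks were found at 1.81% of genes with spans of 10 to 30 kb, and at least 1 normal-diet peak at 50%. Nr6a1, the germ cell factor, lies next to Nr5a1 on chromosome 2 and had no peak in either list over a span of 203 kb. Of genes with spans of 100 to 300 kb, 12.8% had none in both. Nr5a2 had 3 deficient-diet peaks with pileups of 21 to 23. Nr0b1 and Nr0b2, corepressor-like members that lack the usual DNA-binding domain, had 1 deficient-diet peak each, 400 and 267 bp after the start. The Nr0b2 peak was 28 fragments high, with -log10 q 7.43, and the nearest normal-diet summit was 17476 bp from the span.

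Overlapping peaks in both lists were found at 10 of the 42 genes (23.8%, 12.1 to 39.5%), and 22.5% of protein-coding genes had such a pair. The 10 genes were Rara, Ppard, Nr1h2, Nr2e1, Nr2f1, Nr2f6, Esr1, Esrrb, Nr4a1 and Nr4a2, with 18 pairs. Shared bases had a median of 185 bp and summits a median distance of 54.5 bp, with 12 pairs within 100 bp. Of the 63 normal-diet peaks at receptor genes, 17 had a partner (27%, 16.6 to 39.7%) against 34% of the list, and of the 106 deficient-diet peaks, 18 had one (17%, 10.4 to 25.5%) against 21.3%. Both intervals include the share of the list. Of the 20 receptor genes with a peak in each list, 10 had no overlapping pair (50%, background 44.6%), a share near that of protein-coding genes.

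**Figure D3:**
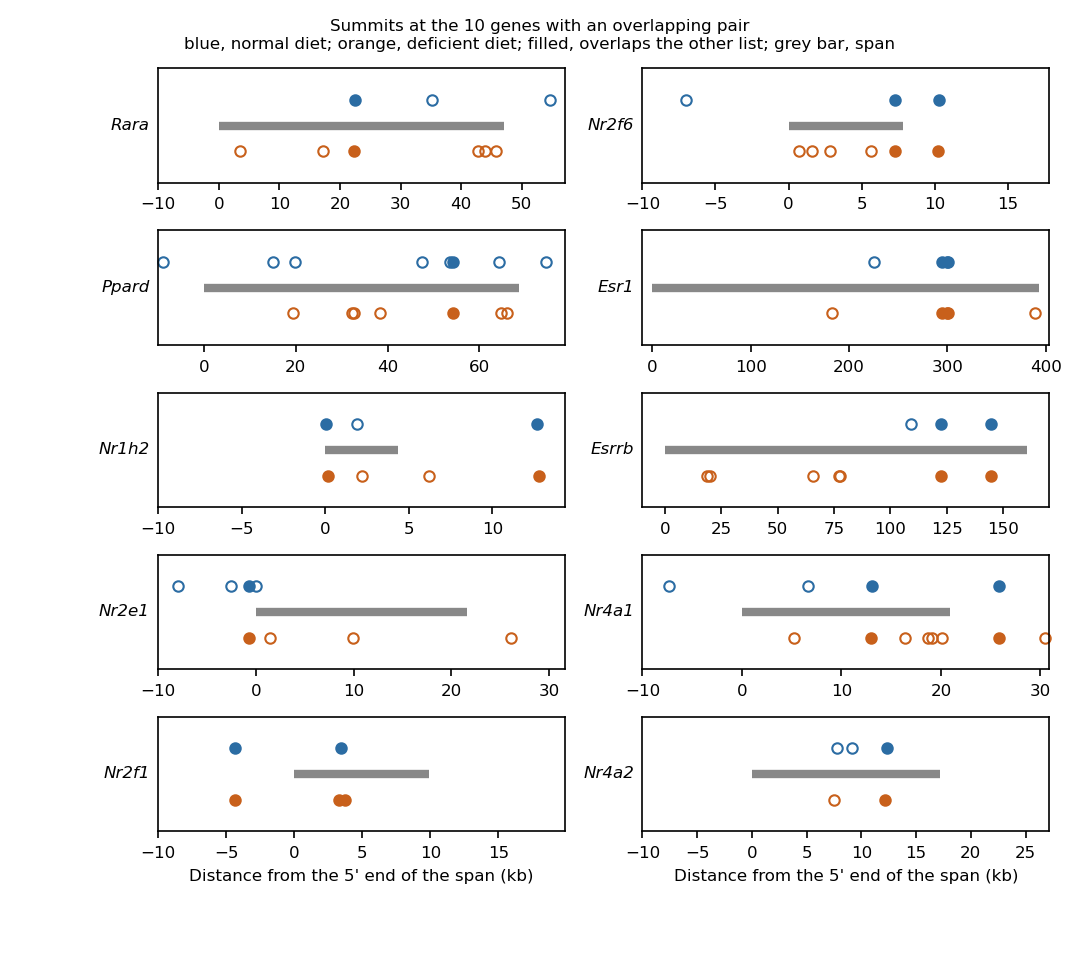
Each panel shows 1 of the 10 genes with an overlapping pair, with the gene span as a grey bar, summits by distance from the 5′ end of the span in kb (horizontal axis), normal diet above in blue and deficient diet below in orange. Filled circles overlap a peak of the other list; the 3 Esr1 pairs lie close together inside the gene, and the Nr2f1 panel holds no open circle.

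Span length bears on these counts, and the receptor genes were therefore set beside protein-coding genes of like length. Under 10 kb, 3 of 7 had a normal-diet peak (42.9%, background 39%) and 6 a deficient-diet peak (85.7%, background 47.7%). From 10 to 30 kb, 9 of 10 had a normal-diet peak (90%, background 50%) and 7 a deficient-diet peak (70%, background 59.7%). From 30 to 100 kb the counts were 5 of 12 (41.7%, background 55.1%) and 9 of 12 (75%, background 66.6%). From 100 to 300 kb they were 3 of 7 (42.9%, background 69.9%) and 4 of 7 (57.1%, background 78.7%), and at 300 kb and over 5 of 6 (83.3%, background 85.3%) and 6 of 6 (100%, background 93%). The share of genes with a peak thus stood above the background in the classes under 30 kb, with 12 of 17 (70.6%, 44 to 89.7%, background 44%) and 13 of 17 (76.5%, 50.1 to 93.2%, background 53.1%). The first of these intervals begins at its background and the second includes it. From 100 to 300 kb both shares were below the background. The remaining classes had a lower normal-diet and a higher deficient-diet share. All of these rest on few genes. Within single classes every interval included the background, except the normal-diet one from 10 to 30 kb (55.5 to 99.7%).

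Density was then taken per length of window. Over all 42 genes, with span length not taken into account, the density was lower than for protein-coding genes. It was 10.6 against 15 normal-diet and 18 against 23 deficient-diet peaks per Mb of window. Spans of 300 kb and over, where density was lowest among protein-coding genes, made up 3.23 of 5.96 Mb of receptor gene window. For protein-coding genes they made up 330 of 1488 Mb, so this lower value is not a comparison at like length. In genes with spans under 10 kb the density was higher, at 44 against 28.3 and 87.9 against 40.5, and likewise from 10 to 30 kb, at 43 against 23.6 and 73.4 against 35.6. From 100 to 300 kb it was lower, at 5.03 against 10.1 and 10.1 against 16.4. The other classes were close to the background, at 16.8 against 15.4 and 26.2 against 24.7 from 30 to 100 kb, and at 4.95 against 5.24 and 7.73 against 8.37 for 300 kb and over. A few genes carry the short classes. Nr1h2, Nr2f1 and Nr2f6 held all 8 normal-diet and 13 of the 16 deficient-diet peaks of the 7 genes under 10 kb, and the other 4 genes had densities of 0 and 30. Nr2e1, Nr4a1, Nr4a2 and Nr5a1 held 12 of 17 and 21 of 29 in the 10 genes of the next class, and the other 6 had 21.4 and 34.3, below the background. These genes were singled out after their values were seen. An overlapping pair was found at 6 of 17 genes under 30 kb (35.3%, 14.2 to 61.7%, background 18.8%) and at 2 of 13 genes of 100 kb and over (15.4%, 1.92 to 45.4%, background 40.7%), and both intervals include the background. Across the 42 genes the number of peaks was almost unrelated to span, with Spearman's rho of 0.0995 and 0.105 in the respective lists, where protein-coding genes gave 0.25 and 0.29. These are correlations across genes within 1 library, and genes are not independent replicates.

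**Figure D4:**
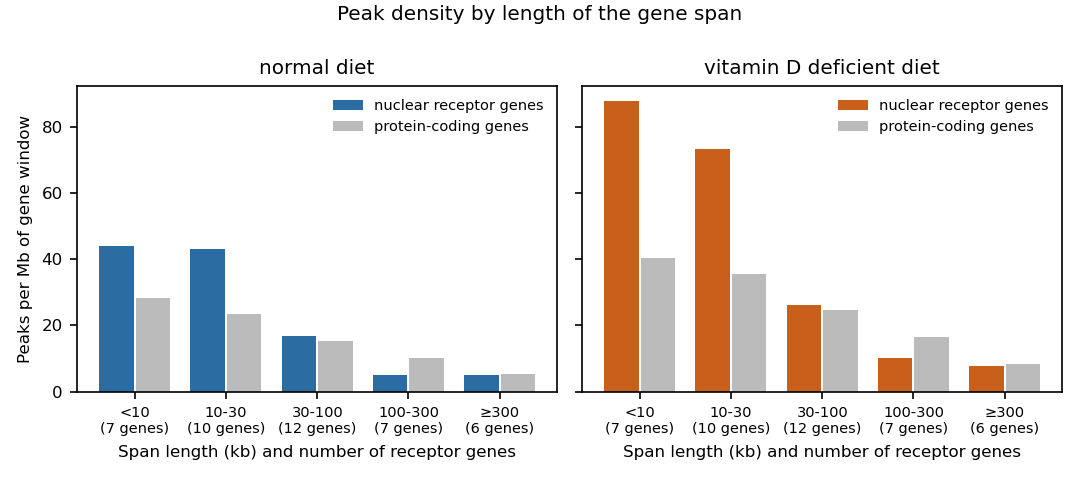
Bars give peaks per Mb of gene window (vertical axis, from 0) in 5 classes of span length for the receptor genes (colour) and all protein-coding genes (grey), with the normal diet on the left and the deficient diet on the right. Receptor genes under 30 kb stand above the grey bars, and those from 100 to 300 kb below them.

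Summits were then placed against transcription starts. Of the 38 receptor genes with a listed start, 7 had a normal-diet summit within 1 kb of one (18.4%, 7.74 to 34.3%) beside a background of 17.1%. In the deficient-diet list 14 had one (36.8%, 21.8 to 54%), beside 18.8%. The 7 were Pparg, Nr1d2, Nr1h2, Nr2e1, Pgr, Esrrg and Nr4a1. The 14 were Thrb, Rarb, Rora, Nr1h2, Hnf4a, Nr2c1, Nr2e1, Nr2e3, Nr2f1, Nr2f6, Nr4a1, Nr5a2, Nr0b1 and Nr0b2, so 3 genes had one in both. Receptor genes have more listed starts, 1.47 per gene against 1.22. With the outermost start alone the counts were 6 (15.8%, background 16.3%) and 12 (31.6%, 17.5 to 48.7%, background 17.7%). After the longer list was cut to equal length its count was 9 (23.7%, 11.4 to 40.2%, background 12.1%), and for peaks whose -log10 q reached 5 they were 4 (10.5%, background 6.13%) and 5 (13.2%, 4.41 to 28.1%, background 4.48%). The deficient-diet interval lay above the background with every listed start of the whole lists, and included it under each of these 3 settings. Counted instead within 1 kb of either end of the span, over all 42 genes, they were 6 (14.3%, background 18.5%) and 10 (23.8%, background 21.9%). At Esrra the summits near an end, with pileups of 25 and 19 in the deficient-diet list, lay by its 3′ end, and 1 of them was in the overlapping spans of Prdx5 and Trmt112.

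The genes of VDR and the RXR partners, and of coactivators and corepressors that nuclear receptors share, were counted in the same way. Vdr, Rxra, Rxrb and Rxrg all had peaks in both lists, 13 and 21 in total, with overlapping pairs at 3 of the 4. Among 12 coactivator genes, 9 had a normal-diet and 11 a deficient-diet peak, and 6 had an overlapping pair. Among 8 corepressor genes the numbers were 5, 6 and 3. The shares over all protein-coding genes were 49.8%, 59.4% and 22.5%, with 40.6% for a peak in both lists. Spans of these genes were not taken into account.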

How the data were processed

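VDR-bound DNA was profiled in 1 left ventricle sample per maternal diet. MACS2 and SAMtools are named in the submitters' processing notes, with the mm10 build; the aligner, threshold and control are not given in the sources used here. Per the file headers each list is in narrowPeak layout, with fold enrichment (a ratio over local background), the -log10 p-value and the -log10 q-value as deposited by the authors. In the normal-diet list the end and score are joined by a point and were split; 1 line without a start was left out. Depth was read from the summit pileup, recovered as the whole number that gives the deposited fold and -log10 p (largest error 0.000293). No header states this reading.

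Members and gene lists were chosen with earlier results of these data known. Named were members with overlapping pairs (at least 1 bp), the 6 per list (with ties) with the most peaks or the highest -log10 q, those with a summit within 1 kb of an end or start, and those without peaks. The background is every protein-coding gene. Python 3.11.15, pandas 2.3.3 and scipy 1.17.1 were used, and functions were tested on simulated data. Alternatives were a -log10 q of 5, equal lengths, windows of 0, 1 and 50 kb, stricter overlap and single assignment. No genome sequence was used, so peaks outside promoter windows have no sequence here.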

Additional observations from a re-analysis of the deposited data

How the results depend on the processing

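Of 55 values recomputed for 10 results, 41 stayed within 1.5 times of the count or within the interval of the share, and 14 did not. For peaks whose -log10 q reached 5, fewer by construction, 17 receptor genes had a deficient-diet peak, 11 a peak in both lists and 4 an overlapping pair. Peaks numbered 28 and 22, the normal-diet share with a partner was 14.3%, and 4 and 5 genes had a summit near a listed start. Cut to equal length, the deficient-diet list held 63 peaks at receptor genes, as many as the normal-diet list, and 9 genes with a summit near a start. A window of 50 kb, which takes in more peaks at any gene, gave 34 genes with peaks in both lists. It gave 20 with an overlapping pair, and 122 and 203 peaks. No background share is given for the counts at 50 kb, nor for both lists or pairs at a -log10 q of 5. The settings for listed starts were chosen after seeing the data. No paired analysis was possible because only 1 library stands for a diet, which also leaves none to omit. Depth and diet cannot be told apart.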
